A study of Bos taurus with 12 samples.

Results

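The genes described here encode the proteasome, and they were taken as the 48 gene rows of the count table, of 17983 in all, whose symbols run from PSMA to PSMG followed by a number. By symbol they divide into 7 core alpha subunits, 7 core beta subunits, 3 immunoproteasome subunits, 2 core subunits restricted to other tissues, 6 ATPases and 11 other subunits of the regulatory particle, 3 assembly factors of its base, 5 activators or inhibitors, and 4 assembly chaperones of the core. The proteasome is the barrel-shaped protease that degrades proteins tagged with ubiquitin. Rings of alpha subunits form the gate of its core particle, rings of beta subunits hold the cutting sites, and a regulatory particle on the end binds, unfolds and feeds in the substrate. In oocytes it removes cyclin B and securin when meiotic metaphase ends, and in pigs its inhibitors block expansion of the cumulus. Roles of single subunits are given as known from human and yeast proteasomes.

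The samples were bovine cumulus-oocyte complexes, each an oocyte inside its coat of cumulus granulosa cells, matured in vitro in 4-well plates. Each sample pooled 50 complexes and gave one library of polyadenylated RNA. The 6 Control samples were matured in control medium, and the 6 Nanoplastics samples in medium holding 3 µg/mL of polystyrene particles with a diameter of 50 nm. The material came from 3 batches, and which batch a sample belongs to is not stated in the sources used here. Oocyte and cumulus cells shared a library, so fewer cells of a type and less RNA per cell cannot be told apart.

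Total counts ranged from 14167578 to 20008464 per library. All 10 oocyte markers were detected, with a summed level of 1014 to 1188 CPM (counts scaled to a common library size) over all libraries, and so were all 10 cumulus and granulosa markers, with a sum of 8817 to 10573 CPM. Most of the oocyte sum came from UCHL1 (678 to 849 CPM) and KIT (120 to 316 CPM). BMP15 ran from 44.3 to 85.5 CPM, GDF9 from 6.30 to 14.6 CPM and NLRP5 from 0.303 to 5.86 CPM. Most of the cumulus and granulosa sum came from SERPINE2 (5788 to 7349 CPM), while FSHR ran from 3.33 to 6.85 CPM. Theca and stroma markers summed to 489 to 798 CPM, endothelial markers to 37.5 to 53.3 CPM and leukocyte markers to 6.86 to 24.6 CPM. Most of the theca and stroma sum came from LUM (234 to 433 CPM), INSL3 (131 to 182 CPM) and PDGFRA (69.5 to 147 CPM). CYP17A1 was at most 0.223 CPM. COL1A2, COL3A1 and COL6A3 ran up to 2.19, 5.80 and 1.36 CPM in Control and 15.4, 13.2 and 10.7 CPM in Nanoplastics libraries. Of 8 tested theca and stroma markers, 7 had a positive log2 fold change, against 50.5% of all tested genes. Positive values were also found for 7 of 10 oocyte, 7 of 10 cumulus and granulosa and 5 of 6 leukocyte markers. For endothelial markers it was 2 of 4 and for red blood cell markers 2 of 2. In each list 0 passed the test, against 0.00% of all tested genes. Most of the endothelial sum came from KDR (31.0 to 46.2 CPM). Red blood cell markers summed to 2.46 to 354 CPM, nearly all of it HBA (2.01 to 345 CPM), while HBB was at 0 in every library.

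The comparison of Nanoplastics with Control complexes asked whether proteasome transcripts differed after maturation with the particles. No proteasome gene passed the test. Most of them had slightly lower mean levels in the Nanoplastics libraries, with a median log2 fold change of −0.04 and a range from −0.16 for PSMB8 to 0.32 for PSMC4. The levels of most subunits moved up and down together from library to library within each group, and over the 12 libraries 3 members, PSMC4, PSMF1 and PSMG4, ran the other way.

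Of the 48 genes, 46 had enough reads to be tested among 12311 genes. The tested members had between 229 and 10402 counts per library. PSMA8, the alpha subunit of the testis, had 1 read in all 12 libraries, in Nanoplastics 6. PSMB11, the beta subunit of the thymus, had 0 to 2 reads per library. Neither reached the minimum count.

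In the quasi-likelihood test of edgeR, adjusted by Benjamini-Hochberg, 0 of the 46 members had an adjusted p under 0.05, against 0.00% of all tested genes, and the adjusted p of each member was 0.999. Without adjustment, 0 members lay under 0.05, against 2.10% of all tested genes (1.07% higher and 1.03% lower in Nanoplastics libraries). DESeq2 and limma-voom also called 0. In 0 members did the Control and Nanoplastics libraries fail to overlap, against 0.0731% of all tested genes. A negative log2 fold change was found for 39 of 46 members (84.8%), against 49.5% of all tested genes, and for a positive one the numbers were 7 (15.2%) against 50.5%. The median log2 fold change over all tested genes was 0.00133. Because members moved together over the libraries, their signs are not independent of each other. The number of members on each side depended on single libraries. Leaving out Nanoplastics 1 raised the number of positive values to 16, leaving out Control 1 raised it to 14, and leaving out Nanoplastics 2 raised it to 12. Without both Control 5 and Nanoplastics 1, a choice made after the values were seen, it was 26 of 46. Leaving out Control 2 or Nanoplastics 6 lowered it to 4.

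The 95% interval of each gene, taken singly, gave the range of differences that the fitted model allowed. For 39 of 46 members (84.8%) the 95% interval stayed between 1.25-fold lower and 1.25-fold higher, against 56.8% of all tested genes. For 45 members (97.8%) it stayed within 1.5-fold, against 83.3%. PSMC4 was the exception. Apart from PSMC4, the intervals ran from 0.727-fold at the lowest bound to 1.23-fold at the highest. The spread between libraries differed by class. The median SD of log2 CPM within groups was 0.152 over members and 0.180 over all tested genes. It was above the latter for the core alpha subunits (0.194) and the immunoproteasome subunits (0.268), and 0.120 for the non-ATPase subunits. The gene's own dispersion lay below the trend for 37 of 46 members (80.4%), against 72.2% of all tested genes. The interval shares and SDs were not matched for level. Every tested member had at least 229 counts in each library, while the filter asked for a minimum count of 10.

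**Figure D1:**
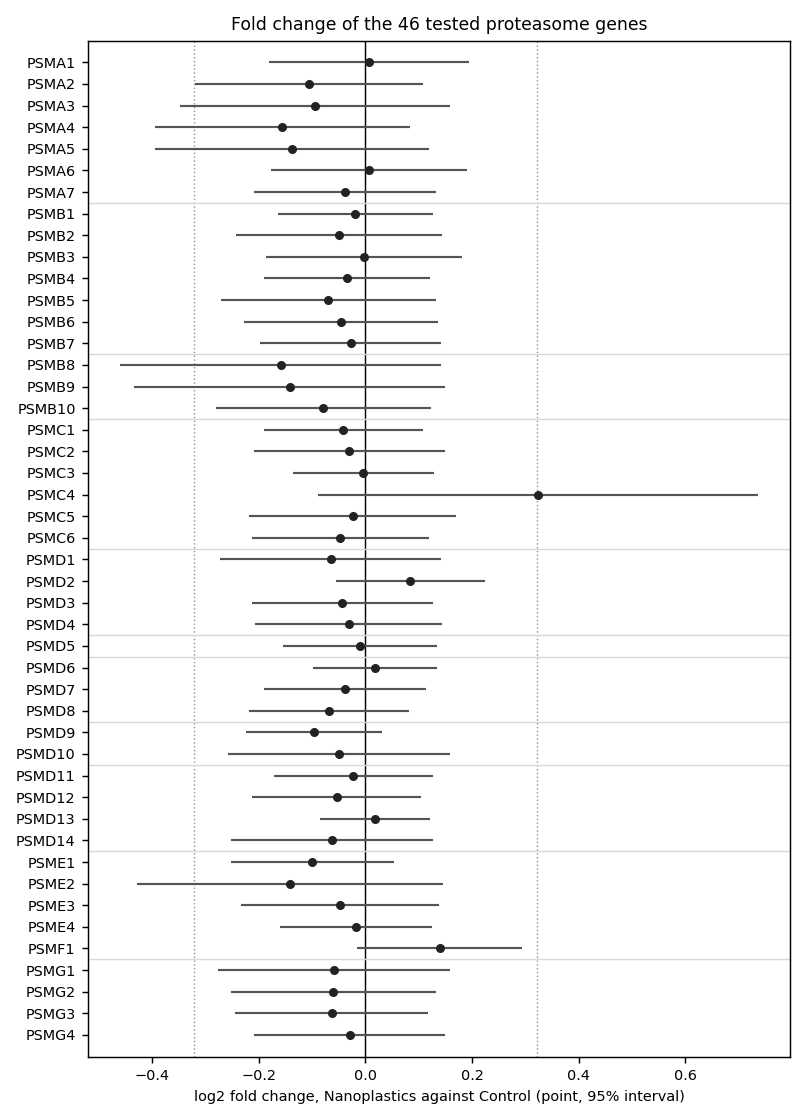
Log2 fold change of each tested proteasome gene, Nanoplastics against Control (points), with its 95% interval from the fitted model (lines), ordered by class; dotted lines mark 1.25-fold in either direction. Every interval spans 0, and that of PSMC4 is the widest, from −0.09 to 0.74.

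**Figure D2:**
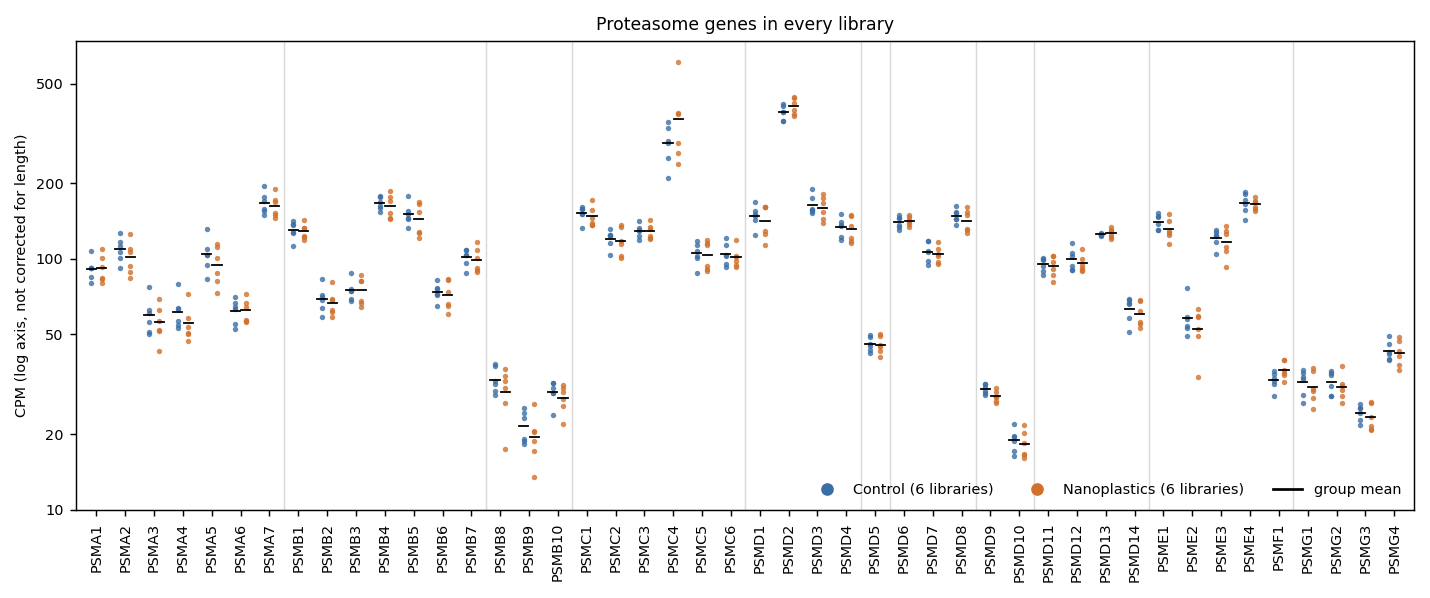
Level of each tested proteasome gene in every library, as CPM on a log axis that is not corrected for gene length; points are libraries, black bars are group means (6 libraries each), and vertical lines separate the classes. The groups overlap for every gene, and PSMC4 has the widest range, from 211 to 613 CPM.

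The core alpha subunits form the outer rings and the gate. The log2 fold change was above 0 for 2 of these 7 genes and below 0 for 5, with a median of −0.09, and none passed the test. PSMA7 drew the most reads among them. It ranged from 150.1 to 195 CPM with a median of 164 in Control, and from 146 to 191 CPM with a median of 161 in Nanoplastics libraries. These ranges almost coincided, and the log2 fold change was −0.04 ± 0.08 (SE). PSMA4 ranged from 53.1 to 79.1 CPM with a median of 59.9 in Control, and from 47.3 to 72.2 CPM with a median of 52.1 in Nanoplastics libraries. In 5 of 6 Nanoplastics libraries it lay below the Control median, yet the groups overlapped over most of their range. Its log2 fold change was −0.16 ± 0.11 (SE), with a 95% interval from −0.39 to 0.08, and −0.07 without Control 5. PSMA3, PSMA4 and PSMA5 shared their extreme libraries, since each was lowest in Nanoplastics 1 and highest in Control 5. PSMA1 and PSMA6 both stood at 0.01 in log2 fold change.

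The core beta subunits form the inner rings, and 3 of them cut. All 7 had a negative log2 fold change, down to −0.07, with a median of −0.03, and none passed the test. PSMB5 carries the chymotrypsin-like activity, the main target of bortezomib. It ranged from 132 to 178 CPM with a median of 149 in Control, and from 122 to 169 CPM with a median of 141 in Nanoplastics libraries. The lowest library was Nanoplastics 1 and the highest Control 5, the groups overlapped, and the log2 fold change was −0.07 ± 0.09 (SE). PSMB6, the caspase-like subunit, ranged from 64.9 to 82.2 CPM (median 74.1) in Control and from 60.3 to 82.9 CPM (median 70.0) in Nanoplastics libraries, with a log2 fold change of −0.05 ± 0.09 (SE). PSMB7, the trypsin-like subunit, ranged from 87.8 to 109 CPM (median 103) in Control and from 88.3 to 117 CPM (median 96.2) in Nanoplastics libraries, with a log2 fold change of −0.03 ± 0.08 (SE). For both genes the groups overlapped over most of their range. Among beta subunits without a cutting site, PSMB4 drew the most reads, from 154 to 178 CPM (median 165) in Control and from 144 to 187 CPM (median 161) in Nanoplastics libraries. Its lowest and highest libraries were both Nanoplastics libraries, and its log2 fold change was −0.03 ± 0.07 (SE).

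The immunoproteasome subunits PSMB8, PSMB9 and PSMB10 take the places of PSMB5, PSMB6 and PSMB7 in cells that respond to interferon gamma, and shift cleavage towards peptides for MHC class I. All 3 were detected in every library, and all had a negative log2 fold change, with a median of −0.14. PSMB8 ranged from 28.7 to 38.0 CPM with a median of 32.1 in Control, and from 17.4 to 36.5 CPM with a median of 31.5 in Nanoplastics libraries. Nanoplastics 1 stood lowest and the other 5 Nanoplastics libraries, from 26.5 CPM upwards, lay within or just under the Control range. The log2 fold change was −0.16 ± 0.14 (SE), and −0.04 without Nanoplastics 1. PSMB9 ranged from 18.3 to 25.3 CPM (median 21.2) in Control and from 13.5 to 26.4 CPM (median 19.7) in Nanoplastics libraries. Both its extremes were Nanoplastics libraries, and the log2 fold change was −0.14 ± 0.14 (SE), and −0.05 without Nanoplastics 1. PSMB10 ranged from 23.8 to 32.1 CPM (median 29.8) in Control and from 22.0 to 31.5 CPM (median 28.6) in Nanoplastics libraries. Its groups overlapped almost fully, with a log2 fold change of −0.08 ± 0.10 (SE).

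A ratio of counts within one library does not depend on scaling between libraries, so each immunoproteasome subunit was set against the constitutive subunit whose place it takes. The ratio of PSMB8 to PSMB5 counts was 0.219 ± 0.0204 in Control (SD, n = 6) and 0.205 ± 0.0396 in Nanoplastics libraries (SD, n = 6). The log2 difference was −0.11 and did not pass an exact two-sided permutation test (p = 0.444, adjusted over the 3 ratios 0.666). The smallest p this design allows is 0.00216. For PSMB9 to PSMB6 the ratio was 0.291 ± 0.0343 in Control (SD, n = 6) and 0.272 ± 0.0536 in Nanoplastics libraries (SD, n = 6), with exact permutation p = 0.435 and an adjusted value of 0.666. For PSMB10 to PSMB7 it was 0.292 ± 0.0382 (SD, n = 6) against 0.282 ± 0.0414 (SD, n = 6), with exact permutation p = 0.690 before and after adjustment. All 3 differences were smaller than the spread between libraries. The lowest PSMB8 to PSMB5 ratio, 0.143, was that of Nanoplastics 1, and without that library the log2 difference was −0.01. The highest, 0.257, was that of Nanoplastics 5. These ratios compare counts that are not corrected for gene length, so they describe change between libraries and not the makeup of the particle.

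**Figure D3:**
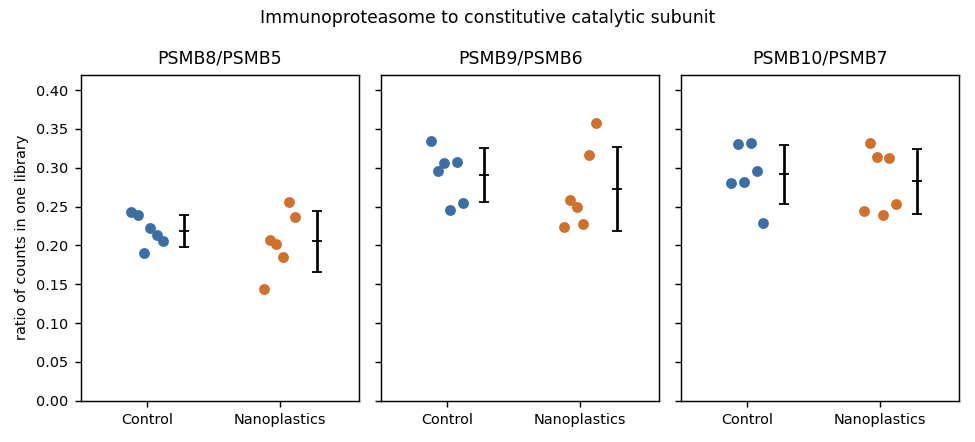
Ratio of immunoproteasome to constitutive catalytic subunit counts in each library (points), with the mean and SD of each group of 6 libraries (bars). Nanoplastics 1 is the lowest point for PSMB8/PSMB5 at 0.143, and the groups overlap for all 3 ratios.

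The ATPases PSMC1 to PSMC6 form the ring that unfolds substrates. Of the 6, 5 had a negative log2 fold change no lower than −0.05, and PSMC4 had a positive one. PSMC4 read 252, 353, 296, 289.5, 211 and 331 CPM in Control 1 to 6, and 613, 381, 239.7, 289.8, 379.8 and 265 CPM in Nanoplastics 1 to 6. Nanoplastics 1 was the highest library and Control 5 the lowest, and 3 of 6 Nanoplastics libraries lay above the Control median. The log2 fold change was 0.32 ± 0.19 (SE), with a 95% interval from −0.09 to 0.74 and an unadjusted p of 0.116 by edgeR. It was 0.11 without Nanoplastics 1 and 0.03 without both Nanoplastics 1 and Control 5. PSMC4 also varied most among the members, with a coefficient of variation over the 12 libraries of 32.5%, against a median of 10.05% over the tested members. Its counts made up from 4.26% to 13.4% of all proteasome counts in a library. PSMC1 ranged from 132 to 161 CPM (median 155) in Control and from 137 to 171 CPM (median 143) in Nanoplastics libraries, with its lowest value in Control 2 and its highest in Nanoplastics 6. Its log2 fold change was −0.04 ± 0.07 (SE).

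The other subunits of the regulatory particle form the scaffold of its base, the ubiquitin receptors and the lid. The log2 fold change was above 0 for 3 of these 11 genes and below 0 for 8, with a median of −0.04. PSMD2, a scaffold of the base, drew the most reads. It ranged from 354 to 413 CPM with a median of 386 in Control, and from 370.0 to 443 CPM with a median of 406 in Nanoplastics libraries. In 4 of 6 Nanoplastics libraries it lay above the Control median, and the log2 fold change was 0.08 ± 0.07 (SE), with a 95% interval from −0.06 to 0.23. The ubiquitin receptor PSMD4 and the lid deubiquitinase PSMD14, which removes ubiquitin chains as substrates enter, had log2 fold changes of −0.03 ± 0.08 (SE) and −0.06 ± 0.09 (SE). The lid subunit PSMD13, singled out after its values were seen, was the steadiest member. It stayed between 124 and 127 CPM in Control and between 120.1 and 134 CPM in Nanoplastics libraries, a coefficient of variation of 2.95%. Its log2 fold change was 0.02 ± 0.05 (SE), with a 95% interval from −0.08 to 0.12.

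PSMD5, PSMD9 and PSMD10 are chaperones that help assemble the base and leave before it is mature. All 3 had a negative log2 fold change. PSMD9 ranged from 28.7 to 31.8 CPM with a median of 30.3 in Control, and from 26.7 to 30.4 CPM with a median of 28.05 in Nanoplastics libraries. In 5 of 6 Nanoplastics libraries it lay below the Control median, but the groups overlapped. Its log2 fold change was −0.10 ± 0.06 (SE), with a 95% interval from −0.22 to 0.03. PSMD5, the one with most reads, ranged from 42.1 to 49.5 CPM (median 45.4) in Control and from 40.6 to 50.0 CPM (median 44.8) in Nanoplastics libraries, with a log2 fold change of −0.01 ± 0.07 (SE). The chaperones PSMG1 to PSMG4 guide assembly of the core, and all 4 had a negative log2 fold change, with a median of −0.06. PSMG4 ranged from 39.6 to 49.1 CPM (median 42.3) in Control and from 36.0 to 49.0 CPM (median 41.9) in Nanoplastics libraries. These ranges nearly matched, and its log2 fold change was −0.03 ± 0.08 (SE).

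The alternative caps of the core were PSME1 and PSME2, which form the interferon-inducible activator PA28, PSME3, its nuclear relative, and PSME4, the nuclear activator PA200. All 4 had a negative log2 fold change. PSME1 ranged from 130.1 to 152 CPM with a median of 142 in Control, and from 114 to 152 CPM with a median of 128 in Nanoplastics libraries. In 5 of 6 Nanoplastics libraries it lay below the Control median, and the log2 fold change was −0.10 ± 0.07 (SE), with a 95% interval from −0.25 to 0.05. PSME2 ranged from 49.1 to 76.3 CPM with a median of 55.9 in Control, and from 33.7 to 63.4 CPM with a median of 55.5 in Nanoplastics libraries. The medians were almost the same, and single libraries, Nanoplastics 1 at the bottom and Control 5 at the top, set the ends. Its log2 fold change was −0.14 ± 0.13 (SE), and −0.04 without Nanoplastics 1. PSME3 ranged from 105 to 129.9 CPM (median 124) in Control and from 93.0 to 135 CPM (median 119) in Nanoplastics libraries, a log2 fold change of −0.05 ± 0.09 (SE). PSME4 ranged from 143 to 184 CPM (median 169) in Control and from 155 to 176 CPM (median 166) in Nanoplastics libraries, a log2 fold change of −0.02 ± 0.07 (SE). For both nuclear activators the groups overlapped widely.

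PSMF1 encodes PI31, a protein that inhibits the isolated core in vitro. It had the smallest unadjusted p among the members, 0.0732 by edgeR. PSMF1 ranged from 28.5 to 35.7 CPM with a median of 33.0 in Control, and from 32.4 to 39.5 CPM with a median of 35.5 in Nanoplastics libraries. In 5 of 6 Nanoplastics libraries it lay above the Control median, and the overlap covered 32.4 to 35.7 CPM. The log2 fold change was 0.14 ± 0.07 (SE), with a 95% interval from −0.01 to 0.29. The unadjusted p moved to 0.0464 without Control 3 and to 0.0446 without Nanoplastics 3, while the Benjamini-Hochberg adjusted p of edgeR stayed at 0.973 or above in both.

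Within both treatments, proteasome genes shared a pattern over the libraries. After the group means were removed, the median Pearson correlation of log2 CPM over the 1035 pairs of members was 0.56, and 79.3% of pairs were above 0. Between members and the other tested genes the median was 0.00, and 50.0% of pairs were above 0. Each value is over 12 libraries, and the points share library, depth and scaling, so these correlations are a description. The median was 0.53 within the 6 Control libraries and 0.59 within the 6 Nanoplastics libraries. It was highest in the core. The 21 pairs of alpha subunits had a median of 0.83, the 21 pairs of beta subunits 0.80 and the 49 pairs between them 0.81, and all of these pairs were above 0. Core subunits with regulatory particle subunits reached 0.72, and the 3 immunoproteasome pairs also 0.72. The non-ATPase subunits had a median of 0.63. Medians within a class were lower for the assembly chaperones, the assembly factors and the activators and inhibitors. The median was −0.07 among the 4 core assembly chaperones and −0.03 among the 3 base assembly factors. It was 0.01 among the 5 activators and inhibitors, but 0.65 between the immunoproteasome subunits and PSME1 or PSME2. Single genes of these classes were exceptions, since PSMG3 had a median correlation of 0.67 with the other members and PSME3 one of 0.73. It was 0.61 for PSME2, 0.57 for PSME1 and 0.46 for PSMD9. Some subunits of the particle itself were low, with 0.04 for the lid subunit PSMD13, 0.26 for PSMB10 and 0.35 for PSMD6. No clean split between mature subunits and other members was thus seen.

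The libraries that were high or low were alike for most members. The number of the 46 genes above their own mean was 40 in Control 1, 8 in Control 2, 30 in Control 3, 11 in Control 4, 40 in Control 5 and 27 in Control 6. In Nanoplastics 1 to 6 it was 6, 7, 29, 33, 8 and 43. Each treatment thus held libraries in which nearly all members were high and libraries in which nearly all were low. The 4 libraries with the fewest members above their mean, Nanoplastics 1, 2 and 5 and Control 2, were also the 4 highest for VEGFA (1200 to 2037 CPM) and for summed red blood cell markers (104 to 354 CPM). The part of these signals in the shared pattern was not tested. Nanoplastics 1 was the lowest library for 18 members and Control 2 for 11, while Control 5 and Nanoplastics 6 were the highest for 14 each. Proteasome genes took 0.483 ± 0.0315% of all counts in the Control group (SD, n = 6) and 0.469 ± 0.0388% in the Nanoplastics group (SD, n = 6). These shares divide by the library total and use no further scaling factor. The share ran from 0.425% in Nanoplastics 1 to 0.519% in Control 1, and the groups overlapped over most of that range. The scaling factor itself was lowest in Nanoplastics 1 (0.929) and highest in Control 5 (1.04). The shares put the libraries in nearly the same order as the counts of members above their mean. Division by the total is itself a scaling between libraries, and the part of scaling in the shared pattern was not tested.

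**Figure D4:**
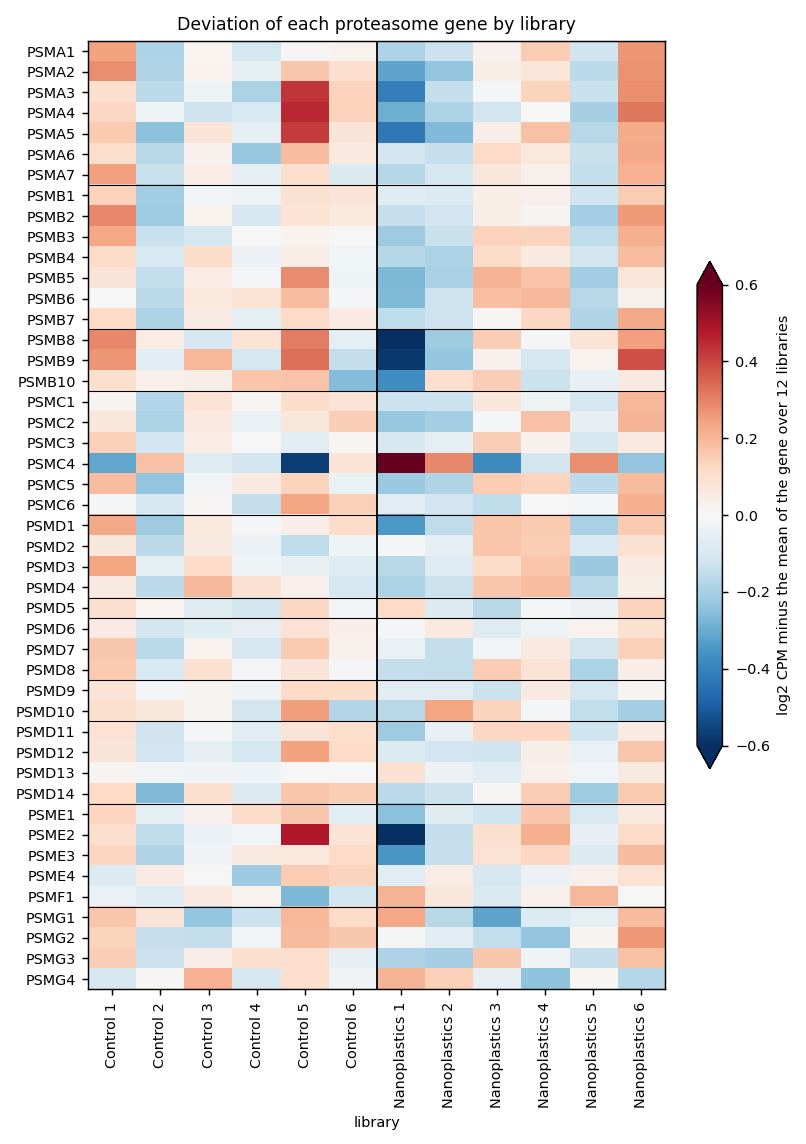
Deviation of log2 CPM from the gene's mean over the 12 libraries, for each tested proteasome gene (rows, by class) in each library (columns); red is above and blue below the mean, and colours stop at 0.6 in either direction. Columns are mostly of one colour, as in Nanoplastics 6, where 43 of 46 genes are above their mean, and PSMC4 is of the opposite colour in most columns.

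PSMC4, PSMF1 and PSMG4 departed from this pattern. They were picked out after the correlations were seen. The median correlation with the other members was −0.69 for PSMC4, −0.45 for PSMF1 and −0.44 for PSMG4. Among the 3 themselves it was 0.54. Without them the median over the remaining 903 pairs was 0.62. Members in many classes were opposed to PSMC4. After removal of the group means its correlation was −0.92 with PSME2, −0.90 with PSMB5 and −0.89 with PSMB8, and between −0.34 and −0.86 with the other ATPases of its own ring. Those ATPases and PSMF1, PSMG4 and VEGFA were looked at in more detail, with the group means kept. Over the 12 libraries PSMC4 and PSMC5 had a Pearson r of −0.84 (permutation p = 8e-05) and a Spearman rho of −0.85 (permutation p = 0.00098). The Benjamini-Hochberg adjusted values over the 8 relations computed for PSMC4 were 0.00032 and 0.00392. The r was −0.85 within Control and −0.89 within Nanoplastics libraries. Without Nanoplastics 1 and Control 5, the libraries farthest from the median of PSMC4, it was −0.93. PSMC4 with PSMC1 gave r = −0.71 (permutation p = 0.00769, adjusted 0.0154) and rho = −0.72 (permutation p = 0.0108, adjusted 0.0264). PSMC2 gave r = −0.67 (permutation p = 0.0145, adjusted 0.0232) and rho = −0.64 (permutation p = 0.0303, adjusted 0.0449), and PSMC3 gave r = −0.60 (permutation p = 0.0347, adjusted 0.0463) and rho = −0.62 (permutation p = 0.0337, adjusted 0.0449). Without the same 2 libraries r was −0.70 for PSMC1, −0.57 for PSMC2 and −0.93 for PSMC3. PSMC6 gave the weakest relation of the ring, r = −0.37 (permutation p = 0.234, also after adjustment) and rho = −0.27 (permutation p = 0.404, also after adjustment). PSMF1 with PSMC4 gave r = 0.75 (permutation p = 0.00637, adjusted 0.0154) and rho = 0.71 (permutation p = 0.0132, adjusted 0.0264), and r was 0.46 without those 2 libraries, so that relation rests partly on them. PSMG4 with PSMC4 gave r = 0.46 (permutation p = 0.127, adjusted 0.145) and rho = 0.50 (permutation p = 0.099, adjusted 0.113). The treatments did not always give like values. Within Control and within Nanoplastics libraries r was −0.58 and −0.76 for PSMC1, −0.41 and −0.77 for PSMC2, −0.22 and −0.86 for PSMC3, and −0.54 and −0.25 for PSMC6. It was 0.51 and 0.88 for PSMF1, and −0.13 and 0.81 for PSMG4, whose sign thus differed between the treatments. The difference between treatments was not tested. Since these pairs were chosen with the values known, the p-values are not independent evidence.

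**Figure D5:**
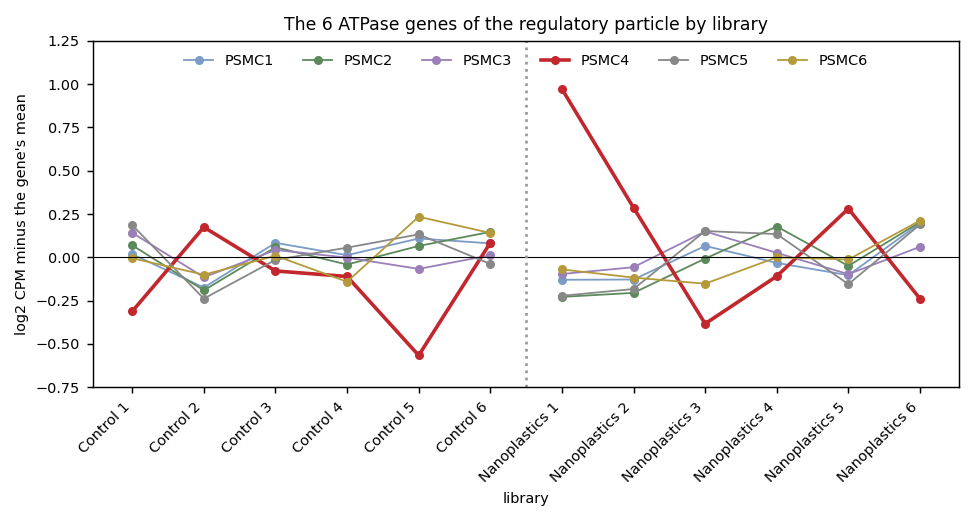
Log2 CPM of the 6 ATPase genes as the difference from each gene's mean over the 12 libraries, by library, with Control on the left of the dotted line and Nanoplastics on the right. PSMC4 (thick red line) often runs against other ATPases, though not against all 5 in every library. Over the 12 libraries r was between −0.84 against PSMC5 and −0.37 against PSMC6.

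The library order of PSMC4 was close to that of VEGFA, an angiogenic factor induced when oxygen is low. VEGFA stood at 120.3, 1200, 580.1, 483, 108 and 902 CPM in Control 1 to 6, and at 2037, 1383, 263, 292, 1377 and 345 CPM in Nanoplastics 1 to 6. Libraries with high VEGFA were found in both treatments, and the lowest, Control 5, was also the lowest for PSMC4. The Pearson r of PSMC4 with VEGFA was 0.89 (permutation p = 4e-05, adjusted 0.00032) and the Spearman rho was 0.97 (permutation p = 1e-05, the smallest that 100000 resamples can give, adjusted 8e-05). The r was 0.96 within Control, 0.91 within Nanoplastics and 0.93 without Nanoplastics 1 and Control 5. PSMC4 and VEGFA were both chosen with the values known, so the p-values are not independent evidence. Their adjustment covers 8 relations and not the choice among all tested genes. Summed red blood cell markers moved the same way, at 354 CPM in Nanoplastics 1, 239.7 CPM in Nanoplastics 2, 138 CPM in Nanoplastics 5 and 104 CPM in Control 2, against 2.46 CPM in Control 5. HBB, which is on that list, was at 0 throughout. The part of these signals in the variation of PSMC4 was not tested, and with the batches unknown no value within a batch could be had.

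In the RefSeq annotation of assembly ARS-UCD2.0 all 48 symbols were found, and 13 of the genes overlapped another annotated gene. PSMC4 overlapped the long non-coding RNA LOC104974868, PSMB5 overlapped PSMB11, PSMB10 overlapped LCAT and PSME1 overlapped EMC9. How the counting treated strand is not stated in the sources used here, so reads of such pairs may be mixed. The counts of PSMB5 (1854 to 3199 per library) and PSMB11 (0 to 2) were far apart. PSMB8, TAP1 and PSMB9 followed each other in the annotation, as did PSME2, EMC9 and PSME1.

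Genes that work with the proteasome were looked at by lists of their roles. None of these genes passed the test. Over all tested genes, 50.5% had a log2 fold change above 0. Genes of one list may move together over the libraries, so their signs need not be independent. Among 10 genes bound to the particle or needed for its maturation, 4 had a log2 fold change above 0 and 6 below, with a median of −0.03. The ubiquitin receptor ADRM1 stood at 87.2 ± 7.04 CPM in Control (SD, n = 6) and 82.4 ± 12.5 CPM in Nanoplastics libraries (SD, n = 6), and the maturation factor POMP at 79.7 ± 12.1 CPM (SD, n = 6) and 77.2 ± 8.67 CPM (SD, n = 6). Both differences were smaller than the spread between libraries. Of 8 tested genes that control transcription of subunits, 6 were positive and 2 negative, with a median of 0.02, and DDI2 had no row. NFE2L1, the factor that raises subunit transcription when proteasome activity is short, read 453 ± 22.9 CPM in Control (SD, n = 6) and 443 ± 22.7 CPM in Nanoplastics libraries (SD, n = 6). MAFF, a small partner of such factors, had the largest difference of that list, a log2 fold change of 0.41 ± 0.27 (SE). It was highest in Nanoplastics 1 at 141 CPM and lowest in Control 5 at 36.2 CPM, the same extremes as PSMC4.

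Of 13 genes for ubiquitin, its activation and its conjugation, 10 were positive and 3 negative, against 50.5% positive among all tested genes. The median was 0.06, and 0 had an unadjusted p under 0.05, against 2.10% of all tested genes. UBE2C, a conjugating enzyme of the anaphase-promoting complex, came nearest, at 28.1 ± 1.98 CPM in Control (SD, n = 6) and 31.8 ± 4.27 CPM in Nanoplastics libraries (SD, n = 6), with an unadjusted p of 0.0546 by edgeR. Of 10 genes for shuttles and extraction, 8 were positive and 2 negative, with a median of 0.01. UFD1, a cofactor of the unfoldase VCP, was the single gene among these 10 at an unadjusted p under 0.05, against 2.10% of all tested genes. It ranged from 50.3 to 58.9 CPM in Control and from 57.2 to 63.5 CPM in Nanoplastics libraries, with a log2 fold change of 0.15 ± 0.06 (SE) and an unadjusted p of 0.0165 by edgeR. Its Benjamini-Hochberg adjusted p in the same edgeR test was 0.999. Of 9 cores of ubiquitin ligases, 4 were positive and 5 negative, with a median of −0.000511.

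The immunoproteasome works with the genes of antigen processing. Of 12 such genes and their inducers, 3 were positive and 9 negative, against 50.5% positive among all tested genes. The median was −0.06. TAP1, the peptide transporter, read 175 ± 26.1 CPM in Control (SD, n = 6) and 158 ± 26.8 CPM in Nanoplastics libraries (SD, n = 6), and B2M, the light chain of MHC class I, 127 ± 20.2 CPM (SD, n = 6) and 115 ± 17.9 CPM (SD, n = 6). The differences were within the spread, on the same side as those of PSMB8 and PSMB9. IRF1, an inducer of PSMB9 and TAP1 in human cells, lay on the other side. It ranged from 23.7 to 27.9 CPM in Control and from 28.5 to 34.0 CPM in Nanoplastics libraries. Its groups thus did not overlap, which held for 0.0731% of all tested genes. IRF1 was the single gene among these 12 at an unadjusted p under 0.05, against 2.10% of all tested genes. Its log2 fold change was 0.27 ± 0.07 (SE), with an unadjusted p of 0.000939 by edgeR, the smallest of all 12311 tested genes. The Benjamini-Hochberg adjusted p of edgeR was 0.999, so IRF1 did not pass the test either.

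In the authors' deposited table for Nanoplastics against Control, 46 members had values. The authors' deposited table gave a negative log2 fold change for 39 of them, a median of −0.05, a smallest p-value of 0.0919 and an adjusted p-value of 1.00 for each.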

How the data were processed

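Paired reads of 150 bases came from RNA of pools of 50 complexes, per the labels' protocols. The submitters' processing notes name Trim Galore 0.4.5, STAR 2.5.4b and DESeq2. How counts were made, on which strand, genome build and annotation, is not stated in the sources used here, so no coordinates are printed.

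The deposited count table held raw whole-number counts per gene for 12 libraries. The deposited log2 table held log2 values normalised by the authors and served as an alternative. The authors' table of Nanoplastics against Control, as deposited, gave each gene a p-value, an adjusted p-value, a log2 fold change and a signal value per group. Its 4 signal columns of other groups were not used. Of 18057 rows, 74 exact copies were dropped.

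The filter on low counts was filterByExpr with a minimum count of 10 and a minimum total of 15, and scaling was by TMM. The test was the two-sided quasi-likelihood test of edgeR 4.0.16 (glmQLFit and glmQLFTest, R 4.3.3), adjusted by Benjamini-Hochberg over all tested genes, with 0.05 as threshold. A prior count of 2 entered log2 CPM. Alternatives used DESeq2 1.42.0 and limma 3.58.1. Ratios were tested over all 924 arrangements of the labels, and correlations with 100000 resamples (scipy 1.17.1, Python 3.11.15). CPM values are not corrected for gene length. Levels per length and promoter motifs, planned at the start, were not run.

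The design text calls the samples independent. No 2 libraries of a group were copies within counting noise (smallest chi-square per degree of freedom 5.45), which says nothing further on their independence. P-values measure the spread between these pools. The batch of each pool is not known, so how the batches enter that spread is not known either.

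The members and lists were chosen with earlier results of these data known. Members described singly were those past the threshold, the 6 of smallest unadjusted p, the one with most reads in each class, the catalytic and immunoproteasome subunits, the activators and inhibitor, and those with an extreme library. The other members named with values, among them PSMA1, PSMA6, PSMC5, PSMD4, PSMD13, PSMD14 and PSMG3, and the genes named outside the members were singled out after their values were seen.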

Additional observations from a re-analysis of the deposited data

Results flagged for a closer look

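In 2 of 98 groups of 6 libraries compared, a single library stood apart from the rest by the gap relative to the range, which is 2.04%. Chance flags about 1 in 20 such groups, or 4.9 here. PSMB10, the immunoproteasome counterpart of PSMB7, had a log2 CPM of 4.58 in Control 6, while the other 5 Control libraries lay between 4.87 and 5.01. PSMC1, an ATPase of the base, had a log2 CPM of 7.05 in Control 2, while the other 5 Control libraries lay between 7.24 and 7.33. Control 2 was also the lowest library for 11 of the 46 members. In the Nanoplastics group no member was set apart in this way.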

How the results depend on the processing

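Of 606 values recomputed under alternatives, 572 kept their direction and their side of the threshold, or for values without a test stayed close to the reported one. Sizes could still move, since no fold change was called. The count of called members was 0 under every alternative run. The number of members with a positive log2 fold change was 7. It became 3 when scaled by library totals alone, 4 to 16 when single libraries were left out, and 26 without both Control 5 and Nanoplastics 1, where the median turned from −0.04 to 0.00197. The number at an unadjusted p under 0.05 ranged from 0 to 2 when single libraries were left out (PSMF1 without Control 3, PSMF1 and PSMC4 without Nanoplastics 3, PSMA4 without Nanoplastics 6). The median correlation of member pairs was 0.618 without PSMC4, PSMF1 and PSMG4, and from 0.492 to 0.592 with single libraries left out. In 20 of 440 recomputed fold changes of named members the sign reversed, each time when 1 library or both Control 5 and Nanoplastics 1 were left out. Over these settings the log2 fold change ran from −0.092 to 0.0054 for PSMA7, −0.13 to 0.025 for PSMB5, −0.098 to 0.029 for PSMB6, −0.084 to 0.017 for PSMB7 and −0.13 to 0.0039 for PSMB10. It ran from −0.045 to 0.013 for PSMD5, −0.21 to 0.051 for PSME2, −0.097 to 0.015 for PSME3, −0.058 to 0.021 for PSME4 and −0.073 to 0.011 for PSMG4. Without a reversal it ran from −0.25 to −0.032 for PSMA4, −0.23 to −0.0031 for PSMB8, −0.25 to −0.0062 for PSMB9, −0.083 to −0.00072 for PSMB4 and 0.029 to 0.41 for PSMC4. The cause was not tested.

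With the replicate number as a block, 0 members were called, the median log2 fold change was −0.05 and 7 were positive, while 288 of all tested genes had an unadjusted p under 0.05. For the PSMB8 to PSMB5 ratio the exact p under this block was 0.594. Same-numbered samples correlated between −0.26 and 0.43 in their deviations, and 1 of 6 matched best with its own number. The batch of each sample is not known, so these values do not decide whether the numbers pair the samples. The block changed no call. Tested members had at least 229 counts in each library, and the intervals printed with the fold changes give the precision of 6 libraries per group.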
